A study of Mus musculus with 3 samples.

Results

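Atf4, Ddit3, Asns, Trib3, Chac1, Psat1, Phgdh, Hspa5, Herpud1 and Sdf2l1 are genes of the integrated stress response and of the response to misfolded protein in the endoplasmic reticulum (ER). They were taken by symbol as a list of 10 among the 28692 genes in the count tables, and all 10 were found. Their transcripts were followed in single cells of the stromal vascular fraction of mouse inguinal fat, by cell class and by library.

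In the integrated stress response, kinases that sense amino acid shortage, misfolded protein in the ER, double-stranded RNA or lack of heme phosphorylate the initiation factor eIF2. General translation then slows, while translation of Atf4 mRNA increases, so that much of the control of ATF4 lies in protein that RNA counts do not show. ATF4 raises genes for amino acid supply (Asns, Psat1, Phgdh) and, with its target CHOP (Ddit3), the feedback and death genes Trib3 and Chac1. The parallel ER sensors IRE1, through XBP1, and ATF6 raise chaperones such as Hspa5 and components for clearing misfolded protein such as Herpud1. Fat stromal cells secrete collagen and other matrix through the ER, and this fraction also holds the immune and vascular cells of the tissue.

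Inguinal fat of C57BL/6 mice was taken from animals given the compound CL 316,243, an agonist of the beta 3 adrenergic receptor, at 1 mg/kg into the peritoneum for 3 days, from animals kept in the cold at 4 C for 3 days, and from controls given saline. Neither the age nor the sex of the mice, nor how many were pooled, is stated in the labels. The 3 groups, called CL, cold and saline, were 1 droplet library each, so no difference between them has a replicate check, and treatment, animal and library cannot be told apart. Intervals below are 95% exact intervals of unique molecule counts (UMIs) and cover counting error only.

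After the filters, 6650 CL, 3858 cold and 6184 saline cells were kept, with 3837, 3623 and 3210 UMIs per cell in the median and 4.10%, 6.49% and 5.69% of UMIs from mitochondrial genes. Cells were clustered and named from marker genes, and a named class is called by its name with "-like". In the 8 classes with at least 100 cells in every library, each marker was detected in every library. These were monocyte-like, B cell-like, fat progenitor cells, called ASPC-like for adipose stem and progenitor cell, macrophage-like, dendritic-like, T cell-like, endothelial-like and mature dendritic-like cells. For each class and library the UMIs of a gene were added up and divided by all UMIs of those cells, times 1000000 (CPM). A ratio was called measured when the higher library had at least 20 UMIs of the gene. Reads from the 3' end do not compare levels between genes, so a gene is compared only with itself. The libraries shared 9 (CL and saline), 7 (cold and saline) and 4 (CL and cold) cell barcodes.

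Some classes were made of different clusters in different libraries. Of the ASPC-like cells, cluster 13, led by Timp1, Prg4 and Lbp, held 423 CL cells, 0 cold cells and 41 saline cells. Of the monocyte-like cells, clusters 1 and 4 held 1500 and 935 CL cells, but 7 and 3 cold cells, and 131 of the 141 cold cells were in cluster 5. Of the macrophage-like cells, cluster 11, led by Saa3, held 663 CL cells and 78 saline cells. Of the B cell-like cells, cluster 3, which carried Jchain and Mzb1 of antibody-secreting cells next to B cell markers, held 125 of 234 CL cells, 462 of 1389 cold cells and 444 of 1623 saline cells. The values of these 4 classes therefore mix level and make-up. Make-up also differed in dendritic-like cells, where cluster 15 held 94 of 410 CL, 73 of 262 cold and 167 of 488 saline cells. In endothelial-like cells cluster 20 held 32 of 261 CL, 38 of 236 cold and 68 of 295 saline cells.

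The control regions of 4 of the genes are shown because 3 of them (Hspa5, Herpud1 and Asns) hold textbook stress elements and because these 3 and Sdf2l1 differed from one another in the data that follow. Each line is the stretch just before the transcription start (250 bases for Hspa5, 150 for the others) on the gene's own strand, 5′ to 3′, from RefSeq on build GRCm38.p6, and capitals mark a motif match on either strand. In Hspa5 they mark the XBP1 core TGACGTG and the ER stress element, bound by ATF6 with NF-Y. In Herpud1 they mark the C/EBP-ATF element, here on the opposite strand, and the second ER stress element. In Asns they mark the C/EBP-ATF element to which ATF4 binds.
Hspa5 (chr2:34771840-34772089, plus strand): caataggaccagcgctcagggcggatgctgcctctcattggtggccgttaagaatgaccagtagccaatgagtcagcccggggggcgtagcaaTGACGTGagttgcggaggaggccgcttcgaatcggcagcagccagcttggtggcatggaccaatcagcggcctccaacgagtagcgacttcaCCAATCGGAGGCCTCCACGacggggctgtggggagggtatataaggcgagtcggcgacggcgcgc
Herpud1 (chr8:94386279-94386428, plus strand): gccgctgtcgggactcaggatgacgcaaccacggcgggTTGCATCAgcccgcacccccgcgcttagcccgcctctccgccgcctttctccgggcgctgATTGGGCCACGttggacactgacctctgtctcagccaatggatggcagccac
Asns (chr6:7693210-7693359, minus strand): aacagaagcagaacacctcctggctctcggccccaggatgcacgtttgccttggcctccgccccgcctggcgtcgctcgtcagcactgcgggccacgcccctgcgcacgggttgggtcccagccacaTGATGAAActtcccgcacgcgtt
Sdf2l1 (chr16:17132384-17132533, minus strand): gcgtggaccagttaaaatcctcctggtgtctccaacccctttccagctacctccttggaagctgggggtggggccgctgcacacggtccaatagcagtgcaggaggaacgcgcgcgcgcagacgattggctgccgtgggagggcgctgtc

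All 10 promoters were searched on both strands from 250 bases before to 50 after the start. The ER stress element, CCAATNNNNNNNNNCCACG, was found in Hspa5 alone, 65 bases before its start, and in 0.119% of 32851 mouse promoters. The second ER stress element, ATTGGNCCACG, was found in Herpud1 alone, 52 bases before its start, and in 0.0365% of promoters. The C/EBP-ATF element, TGATGNAA, was found in Asns, Chac1 and Herpud1, at 23, 193 and 112 bases before the start, in Trib3 at 15 bases after it, and in 3.97% of promoters. The XBP1 core, TGACGTG, was found in Hspa5 at 157 bases before the start and in 2.01% of promoters, and no motif overlapped another. A match is a description of the letters. None of these letters occurred in the window of Sdf2l1, which says nothing about the factors that act on it.

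**Figure D1:**
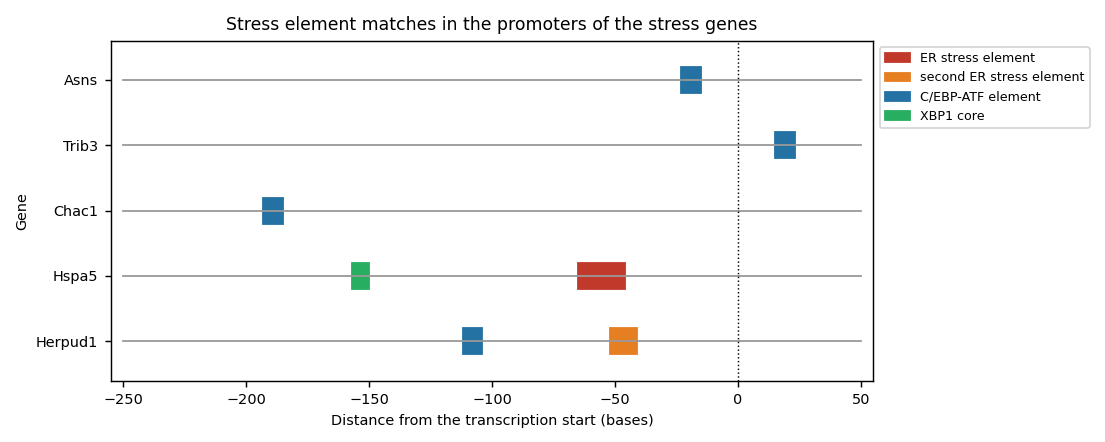
Motif matches (coloured blocks) along the promoters of the 5 genes that had one, drawn by distance in bases from the transcription start (dotted line), from 250 bases before to 50 after it. The ER stress element of Hspa5 and the second ER stress element of Herpud1 lie at 65 and 52 bases before the start, and the match in Trib3 lies after it.

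Atf4, the transcription factor at the centre of the integrated stress response, was lower in both treated libraries in ASPC-like, endothelial-like, monocyte-like and macrophage-like cells and not in lymphoid or dendritic ones. In endothelial-like cells it was at 291 CPM in the CL library, 235 in the cold library and 563 in the saline library. The log2 ratio over saline was -0.95 (95% interval -1.2 to -0.70) for CL and -1.26 (95% interval -1.5 to -1.03) for cold, so both treated libraries lay well below saline, by more than their counting error. In ASPC-like cells the levels were 282 CPM (CL), 299 (cold) and 425 (saline), with log2 ratios of -0.59 (95% interval -0.67 to -0.51) for CL and -0.51 (95% interval -0.60 to -0.41) for cold. Again the treated libraries lay together and below saline.

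Atf4 was lower to a smaller degree in monocyte-like cells, at 352 CPM (CL), 351 (cold) and 485 (saline). It was likewise lower in macrophage-like cells, at 333 CPM (CL), 362 (cold) and 432 (saline). None of these ratios passed 1.5-fold. Within monocyte-like cluster 5 Atf4 was at 317 CPM (CL), 356 (cold) and 464 (saline), below saline for both. Within macrophage-like clusters 9 and 18 it was at 307 CPM (CL), 404 (cold) and 444 (saline) and at 304 CPM (CL), 301 (cold) and 369.6 (saline), and the intervals for cold over saline held 0 in both, as did that for CL in cluster 18. In B cell-like cells the order was the opposite, 274 CPM (CL), 252 (cold) and 218 (saline), with a log2 ratio of 0.33 (95% interval 0.04 to 0.61) for CL and 0.20 (95% interval 0.06 to 0.35) for cold. In dendritic-like, T cell-like and mature dendritic-like cells every interval over saline held 0. In the saline library the highest levels were in pericyte or smooth muscle-like (578 CPM), lymphatic endothelial-like (575 CPM) and endothelial-like cells, whose intervals overlapped. The pericyte or smooth muscle-like cells were at 311 CPM in the CL library and 309 in the cold library.

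The lower Atf4 of ASPC-like cells was present in each of their clusters, but not to the same degree. In cluster 2, led by Pi16, Atf4 was at 354 CPM (CL), 264 (cold) and 408 (saline). In cluster 6, led by Col5a3 and Col4a1, it was at 280.4 CPM (CL), 412 (cold) and 510.1 (saline). Cold was the lower treated library in cluster 2 and CL in cluster 6. Cluster 14, led by Gdf10, had 226 CPM (CL), 231 (cold) and 310.0 (saline), and cluster 13 had 271 CPM (CL) and 371 (saline). In endothelial-like cells the difference lay mostly in cluster 12, led by Fabp4 and Gpihbp1, at 262 CPM (CL), 207 (cold) and 587 (saline). In cluster 20, led by Plvap and Aqp1, Atf4 was at 440.5 CPM (CL), 328 (cold) and 507 (saline), and the log2 ratio over saline was -0.20 for CL, with an interval that held 0, and -0.63 (95% interval -1.06 to -0.20) for cold.

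Genes switched on within minutes of tissue dissociation were, like Atf4, lower in both treated libraries in endothelial-like cells as a class. The summed level of 13 immediate early genes (Fos, Jun, Egr1 and others) there was 7080.0 CPM (CL), 7604 (cold) and 14894 (saline). Of these, 12 of 13 were past 1.5-fold lower in CL over saline (all genes 16.2%) and 11 of 13 in cold over saline (all genes 13.2%). By cluster the sum was 6541 CPM (CL), 6026 (cold) and 15858 (saline) in cluster 12 and 9802, 12782 and 12615 in cluster 20. Cluster 20 held 32 CL, 38 cold and 68 saline cells. The immediate early sum in ASPC-like cells was 9876 CPM in the CL library, 12705 in the cold library and 12969 in the saline library. By cluster of these cells the sum was 12438 CPM (CL), 11625 (cold) and 11072 (saline) in cluster 2. It was 11600 CPM (CL), 16279 (cold) and 17195 (saline) in cluster 6 and 9954, 10416 and 12904 in cluster 14. Cluster 13 had 7527 CPM (CL) and 6298 (saline). The CL sum thus lay above saline in clusters 2 and 13 and below it in clusters 6 and 14. In macrophage-like cells the sum was 6387 CPM in the CL library, 9588 in the cold library and 10828 in the saline library. The summed level of 11 cytosolic heat shock genes in endothelial-like cells was 5633 CPM in the CL library, 5423 in the cold library and 8035 in the saline library. The part of dissociation and heat shock genes in the Atf4 differences was not tested.

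**Figure D2:**
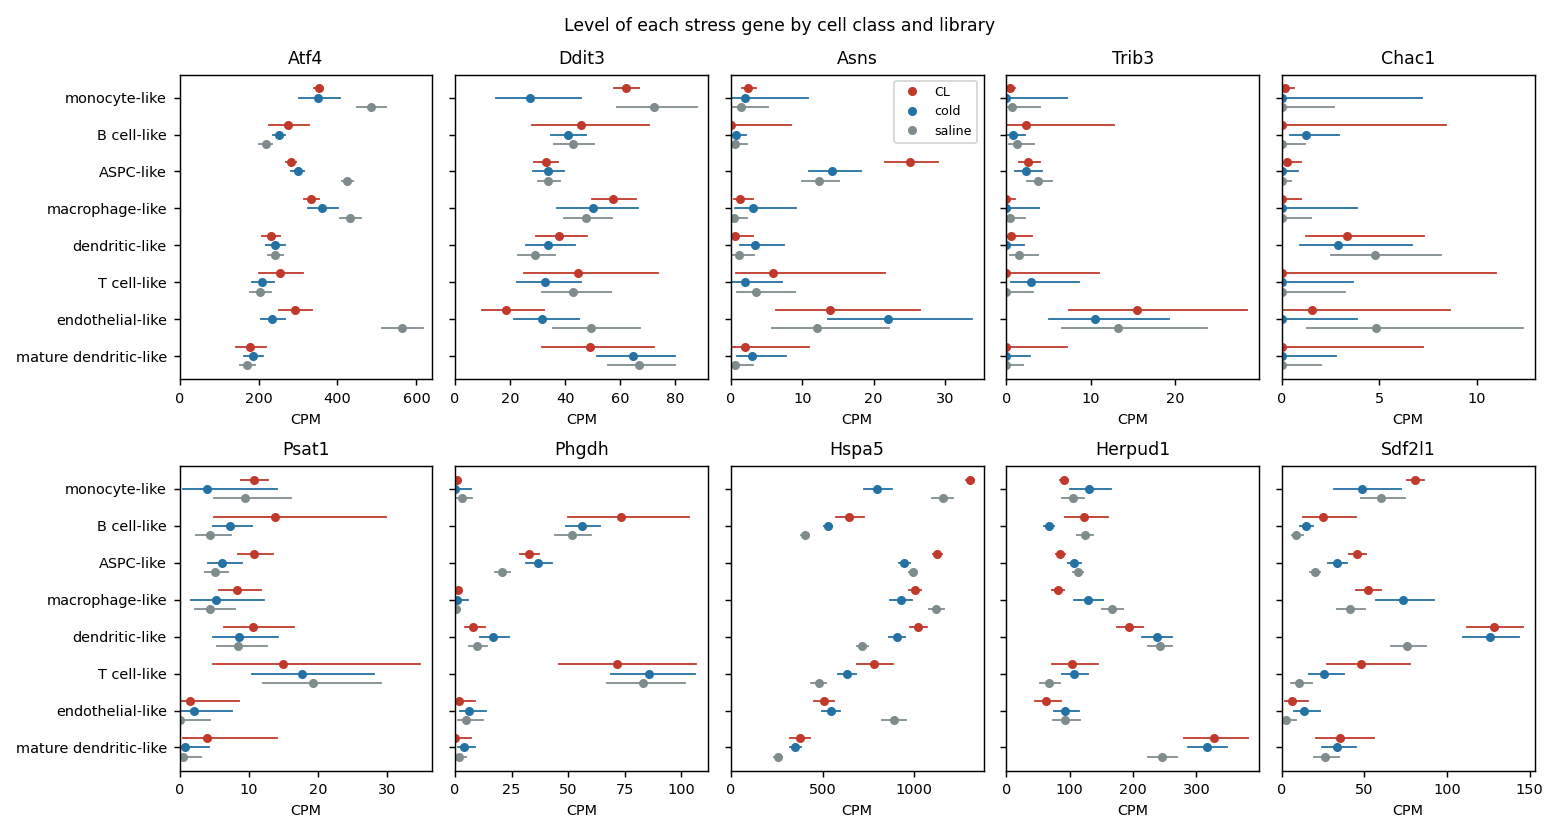
Level in CPM (x axis) of each of the 10 genes in the 8 main cell classes (rows), with CL in red, cold in blue and saline in grey. Points are counts summed over a class in 1 library and bars are 95% counting intervals. Atf4 and Hspa5 lie lower in the CL and cold libraries than in saline in endothelial-like cells, and Sdf2l1 lies higher in both in ASPC-like and dendritic-like cells.

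Ddit3, which encodes CHOP, did not follow Atf4 in ASPC-like cells. It was at 32.9 CPM in the CL library, 33.7 in the cold library and 33.9 in the saline library, and the log2 ratios were -0.04 (95% interval -0.30 to 0.21) for CL and -0.01 (95% interval -0.31 to 0.29) for cold. The 3 libraries overlapped there, so no difference was detectable at this depth. In endothelial-like cells Ddit3 was at 18.6 CPM (CL), 31.5 (cold) and 49.5 (saline), with a log2 ratio of -1.41 (95% interval -2.48 to -0.46) for CL, on 12 UMIs, and -0.65 (95% interval -1.38 to 0.06) for cold. Only the CL interval lay below 0.

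In monocyte-like cells Ddit3 was at 62.2 CPM (CL), 27.3 (cold) and 72.3 (saline), so that cold stood below both others, on 14 UMIs. Within cluster 5, which held most cold monocyte-like cells, the values were 41.2 CPM (CL), 27.5 (cold) and 59.5 (saline), with a log2 ratio for cold over saline of -1.11 (95% interval -2.20 to -0.09). For CL over cold it was 0.58 (95% interval -0.27 to 1.545), an interval that held 0. In macrophage-like, dendritic-like, B cell-like, T cell-like and mature dendritic-like cells each interval over saline held 0. The highest level was in neutrophil-like cells, at 208 CPM in the CL library and 136 in the cold library, from 24 and 6 UMIs. Plasmacytoid dendritic-like cells had 62.1 CPM (CL), 108 (cold) and 99.2 (saline). Ddit3 overlaps Mars on the opposite strand in the annotation, and whether the counting used strand is not given in the sources used here.

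Asns, the enzyme that makes asparagine, was highest in stromal and vascular cells among the main classes, but not among all classes. Of the 8 main classes, ASPC-like and endothelial-like cells were above 10 CPM in every library, and the other 6 were below 6 CPM. Of the small classes, regulatory T-like cells had 5.72 CPM (CL), 23.8 (cold) and 14.0 (saline), from 21, 49 and 32 cells. Asns was at 22.6 CPM in the 29 cold neutrophil-like cells, and at 11.95 CPM (CL), 27.3 (cold) and 18.2 (saline) in pericyte or smooth muscle-like cells. In ASPC-like cells it was at 25.0 CPM in the CL library, 14.2 in the cold library and 12.4 in the saline library, from 179, 62 and 96 UMIs. CL stood above both others, with a log2 ratio of 1.02 (95% interval 0.65 to 1.39) over saline and 0.82 (95% interval 0.39 to 1.26) over cold, while cold over saline was 0.20 (95% interval -0.29 to 0.67). Thinned to 2000 UMIs per cell, 4.83% of CL, 3.27% of cold and 1.94% of saline ASPC-like cells held an Asns UMI, and without thinning 14.2%, 9.93% and 7.05% did. Thinning left out 37 CL, 13 cold and 34 saline cells. In macrophage-like cells the unthinned shares were 0.551% (CL), 0.913% (cold) and 0.133% (saline), below the shares in ASPC-like cells, at median depths of 6523 UMIs per ASPC-like and 3978 per macrophage-like CL cell.

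Much of the higher Asns in the CL library came with cluster 13. Cluster 13 had 33.5 CPM (CL) and 18.6 (saline), and cluster 6 had 24.9 CPM (CL), 24.7 (cold) and 18.2 (saline). Cluster 2 had 12.9 CPM (CL), 10.1 (cold) and 10.0 (saline), and cluster 14 had 11.2 CPM (CL), 10.3 (cold) and 6.10 (saline). Over the clusters present in every library (2, 6 and 14) the log2 ratio over saline was 0.66 for CL and 0.23 for cold, and within each of clusters 2 and 6 the intervals for CL held 0. In endothelial-like cells Asns was at 13.9 CPM (CL), 22.0 (cold) and 12.1 (saline), from 9, 21 and 10 UMIs, and the interval for cold over saline held 0.

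Phgdh and Psat1 encode the first and second enzymes of serine synthesis from a glycolytic intermediate, and both can be raised by ATF4. Phgdh stood above saline in both treated libraries in ASPC-like cells, at 32.7 CPM in the CL library, 36.6 in the cold library and 20.8 in the saline library. The log2 ratio was 0.66 (95% interval 0.36 to 0.96) for CL and 0.82 (95% interval 0.50 to 1.15) for cold, and the interval for CL over cold held 0. By cluster, Phgdh was at 25.8 CPM (CL), 17.7 (cold) and 12.2 (saline) in cluster 2, 46.3 CPM (CL), 63.4 (cold) and 29.7 (saline) in cluster 6 and 41.0 CPM (CL), 53.0 (cold) and 30.5 (saline) in cluster 14. Both treated libraries were thus above saline in these 3, with intervals above 0 for CL in clusters 2 and 6 and for cold in clusters 6 and 14. Cluster 13 had 22.2 CPM (CL) and 34.0 (saline), and its interval held 0. Over the 3 clusters present in every library the log2 ratios were 0.99 for CL and 0.86 for cold.

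Psat1 was read at 10.8 CPM in the CL library, 6.18 in the cold library and 5.16 in the saline library in ASPC-like cells. Its log2 ratio was 1.06 (95% interval 0.49 to 1.65) for CL and 0.26 (95% interval -0.50 to 1.00) for cold, on 77, 27 and 40 UMIs, so CL alone stood beyond counting error. By cluster it was at 15.9 CPM (CL), 14.8 (cold) and 6.78 (saline) in cluster 6, 4.60 CPM (CL), 2.52 (cold) and 2.69 (saline) in cluster 2 and 9.92 CPM (CL) and 21.6 (saline) in cluster 13. In macrophage-like cells Psat1 was at 8.30 CPM (CL), 5.22 (cold) and 4.45 (saline), and the log2 ratio for CL over saline was 0.90 (95% interval -0.13 to 2.04). In cluster 11, which held most of the CL cells, Psat1 was at 9.29 CPM (CL) and 9.41 (saline).

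Outside the stroma, both serine enzymes were highest in small classes that carried cycling genes or were glial. Phgdh was at 326 CPM (CL), 432 (cold) and 280.3 (saline) in regulatory T-like cells, whose leading genes included Mki67 and Top2a and which numbered 21 CL, 49 cold and 32 saline cells. Psat1 was at 51.5 CPM (CL), 73.0 (cold) and 112 (saline) in the same cells. The T cell-like cluster had a mean log2 fold of 3.325 for T cell markers and 3.25 for regulatory T markers. The names thus do not set regulatory T cells apart from T cell-like ones. In Schwann-like cells Phgdh was at 156 CPM (CL), 176 (cold) and 225 (saline) and Psat1 at 52.1 CPM (CL), 70.2 (cold) and 43.8 (saline). An unnamed cluster led by immunoglobulin and cycling genes had 207 CPM of Phgdh in the cold library, which held 83 of its cells, against 2 in CL and 18 in saline. Monocyte-like and macrophage-like cells were near 0 for Phgdh in every library, between 0 and 2.89 CPM, while B cell-like and T cell-like cells had 73.2 CPM (CL), 56.2 (cold) and 51.6 (saline) and 71.5 CPM (CL), 85.7 (cold) and 83.1 (saline). In the dendritic-like cells Phgdh was at 7.80 CPM (CL), 16.6 (cold) and 9.55 (saline), on 14, 29 and 26 UMIs, and the log2 ratio for CL over cold was -1.09 (95% interval -2.12 to -0.12).

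Trib3, a pseudokinase that feeds back on ATF4, and Chac1, which breaks down glutathione, were hardly read. Over all kept cells Trib3 had 36 (CL), 33 (cold) and 56 (saline) UMIs and Chac1 had 12, 17 and 22. Trib3 was highest in endothelial-like cells, at 15.5 CPM (CL), 10.5 (cold) and 13.3 (saline), from 10, 10 and 11 UMIs, with overlapping intervals. In ASPC-like cells it was at 2.52 CPM (CL), 2.29 (cold) and 3.74 (saline), and both intervals over saline held 0. Chac1 was in no class at 20 UMIs in any library. Of its 13 UMIs in saline dendritic-like cells, 12 lay in cluster 15, led by Xcr1 and Clec9a, as did 5 of 6 in CL and 3 of 5 in cold.

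**Figure D3:**
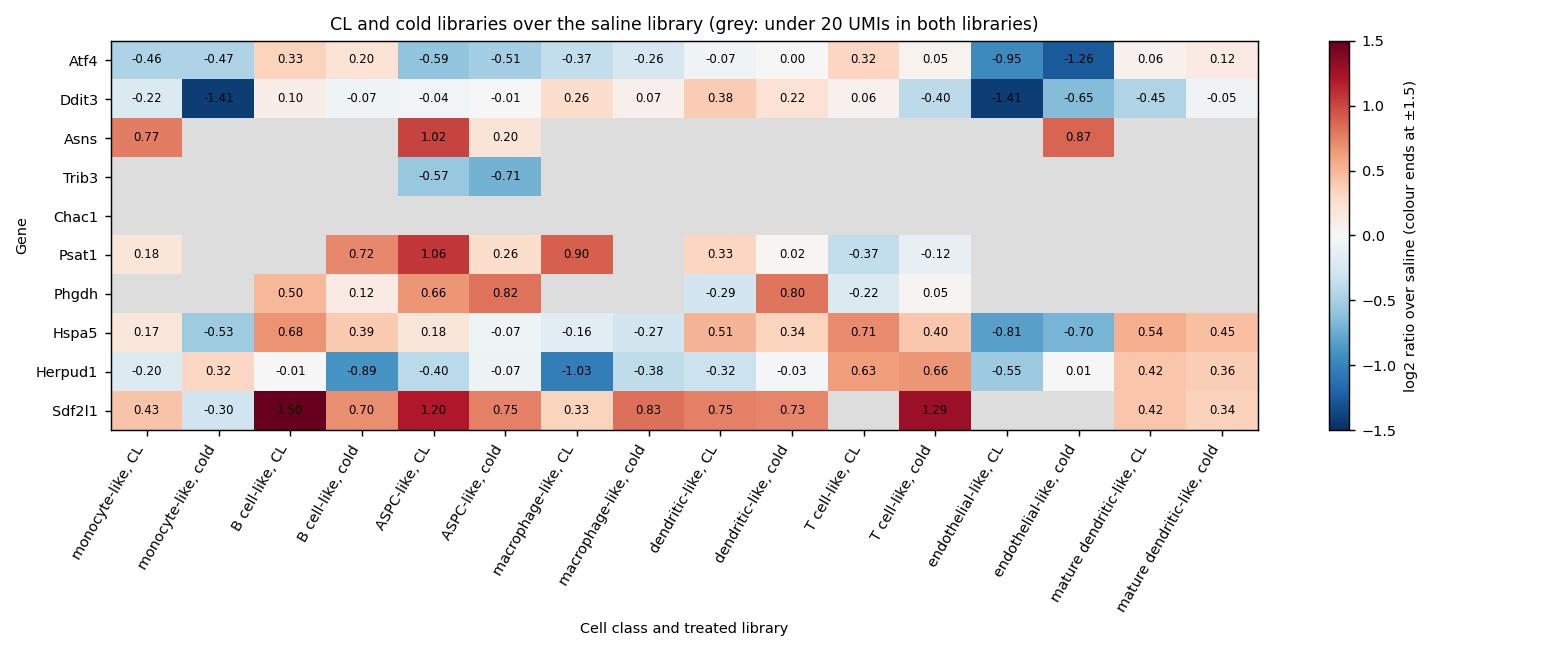
Log2 ratio of the CL and cold libraries over the saline library for the 10 genes (rows) in the 8 main cell classes (columns, CL left of cold). Red is higher and blue lower than saline, numbers give the ratio, and grey marks genes under 20 UMIs in both libraries. Sdf2l1 is red in all but 1 of its coloured columns, cold monocyte-like cells, and Atf4 is blue in ASPC-like and endothelial-like cells.

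Hspa5 encodes BiP, the main Hsp70 chaperone of the ER, which also holds the ER sensors inactive. It was read in every class. Among the main classes it stood above saline in both treated libraries in B cell-like, T cell-like, dendritic-like and mature dendritic-like cells. In B cell-like cells it was at 645 CPM in the CL library, 528 in the cold library and 403 in the saline library, with log2 ratios of 0.68 (95% interval 0.49 to 0.86) and 0.39 (95% interval 0.29 to 0.49) for CL and cold. T cell-like cells had 780.4 CPM (CL), 633 (cold) and 478 (saline), and the log2 ratio was 0.71 (95% interval 0.49 to 0.92) for CL and 0.40 (95% interval 0.24 to 0.57) for cold. In both classes the order was CL, then cold, then saline. In B cell-like cells CL over cold was 0.29 (95% interval 0.10 to 0.47), but 0.07 without the 3 cells with most Hspa5 in each library, and 0.09 (95% interval -0.22 to 0.38) in cluster 0.

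Dendritic-like cells had 1019.7 CPM (CL), 905 (cold) and 717 (saline). Both their clusters were above saline in both treated libraries, but CL over cold was 0.44 (95% interval 0.31 to 0.56) in cluster 7 and -0.25 (95% interval -0.42 to -0.08) in cluster 15, so the treated libraries changed places. Mature dendritic-like cells had 376 CPM (CL), 352 (cold) and 258 (saline), where the treated libraries overlapped. Of these 4 classes, CL passed 1.5-fold in B cell-like and T cell-like cells and cold in none. Hspa5 was at 760.5 CPM (CL), 638 (cold) and 478 (saline) in B cell-like cluster 3, against 505 CPM (CL), 476 (cold) and 376 (saline) in cluster 0, led by Ighd, Fcmr and Ms4a1. Leaving out the 3 top cells brought the ratio for CL over saline in B cell-like cells to 0.43.

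Endothelial-like cells went the other way. Hspa5 was at 507 CPM in the CL library, 546 in the cold library and 888 in the saline library, a log2 ratio of -0.81 (95% interval -1.0 to -0.62) for CL and -0.70 (95% interval -0.87 to -0.54) for cold. In cluster 12 it was at 458 CPM (CL), 442 (cold) and 858 (saline). In cluster 20 it was at 749.7 CPM (CL), 885 (cold) and 957 (saline), with log2 ratios of -0.35 (95% interval -0.74 to 0.02) for CL and -0.11 (95% interval -0.39 to 0.17) for cold. The summed heat shock genes in cluster 12 were at 5590.5 CPM (CL), 4968 (cold) and 8493 (saline), and their part in the Hspa5 difference was not tested.

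In ASPC-like cells as a class Hspa5 was at 1125 CPM (CL), 944 (cold) and 990.4 (saline). CL lay above saline and cold below it, both by more than counting error and by less than 1.5-fold. The clusters of these cells differed from one another. Cluster 13 had 1344 CPM (CL) and 847 (saline), while cluster 6 had 1011 CPM (CL), 1164 (cold) and 1237 (saline), where the log2 ratio for CL was -0.29 (95% interval -0.37 to -0.21). In cluster 2 the values were 1009 CPM (CL), 854 (cold) and 889 (saline). Monocyte-like cells had 1301 CPM (CL), 799 (cold) and 1154 (saline). Within their cluster 5 the cold value was 813 CPM and the saline value 812 CPM, so the lower class value of cold was absent within that cluster. Macrophage-like cells had 1005 CPM (CL), 926 (cold) and 1120.0 (saline), with both treated libraries below saline. By cluster they had 1297 CPM (CL), 958 (cold) and 1169.8 (saline) in cluster 9, where CL over cold was 0.44 (95% interval 0.25 to 0.63), and 881 CPM (CL), 878 (cold) and 993 (saline) in cluster 18.

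Sdf2l1, a small ER protein that works with BiP and its J-domain partners, was the member above saline in most classes. In ASPC-like cells it was at 45.6 CPM in the CL library, 33.4 in the cold library and 19.9 in the saline library, from 326, 146 and 154 UMIs. The log2 ratio was 1.2 (95% interval 0.92 to 1.49) for CL and 0.75 (95% interval 0.42 to 1.09) for cold, and the 3 libraries did not overlap. In dendritic-like cells it was at 128 CPM (CL), 126 (cold) and 76.0 (saline), with log2 ratios of 0.75 (95% interval 0.48 to 1.03) for CL and 0.73 (95% interval 0.45 to 1.01) for cold. Both treated libraries were above saline in both dendritic clusters, with 103 CPM (CL), 86.8 (cold) and 61.4 (saline) in cluster 7 and 188 CPM (CL), 196 (cold) and 94.0 (saline) in cluster 15.

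Of the classes where it could be measured, Sdf2l1 was above saline in 6 of 6 in the CL library and in 6 of 7 in the cold library, and its interval lay above 0 in 4 and 5 of them. Both comparisons share the 1 saline library. Macrophage-like cells had 52.0 CPM (CL), 73.2 (cold) and 41.3 (saline), with cold the highest, as it was in cluster 9, at 38.8 CPM (CL), 44.0 (cold) and 25.4 (saline), and in cluster 18, at 58.2 CPM (CL), 116 (cold) and 71.7 (saline). T cell-like cells had 47.7 CPM (CL), 25.6 (cold) and 10.5 (saline), from 16, 26 and 12 UMIs, and B cell-like cells 25.1 CPM (CL), 14.4 (cold) and 8.87 (saline), from 11, 57 and 28. The B cell-like value of CL rested on few cells: without the 3 top cells of each library the log2 ratio over saline was -0.10, against 1.5 with them. The cold ratio there, 0.70 (95% interval 0.02 to 1.41), was 0.016 with every cell given the same weight. In monocyte-like cells cold over saline was -0.30 (95% interval -1.01 to 0.36), and 0.89 (95% interval -0.20 to 2.08) within cluster 5. Endothelial-like cells had 4, 13 and 2 UMIs.

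In ASPC-like cells the CL value of Sdf2l1 was set largely by cluster 13, with 73.5 CPM (CL) and 6.18 (saline), from 215 and 2 UMIs. Cluster 6 had 30 CPM (CL), 27.2 (cold) and 14.0 (saline), with log2 ratios of 1.10 (95% interval 0.49 to 1.75) for CL and 0.96 (95% interval 0.22 to 1.70) for cold. Cluster 2 had 25.8 CPM (CL), 37.8 (cold) and 25.0 (saline), with a log2 ratio of 0.60 (95% interval 0.18 to 1.02) for cold and an interval that held 0 for CL. Over clusters 2, 6 and 14 together the log2 ratio was 0.36 for CL and 0.71 for cold. The CL ratio was thus smaller without cluster 13, and the cold ratio, in a library with 0 cells of that cluster, moved little.

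**Figure D4:**
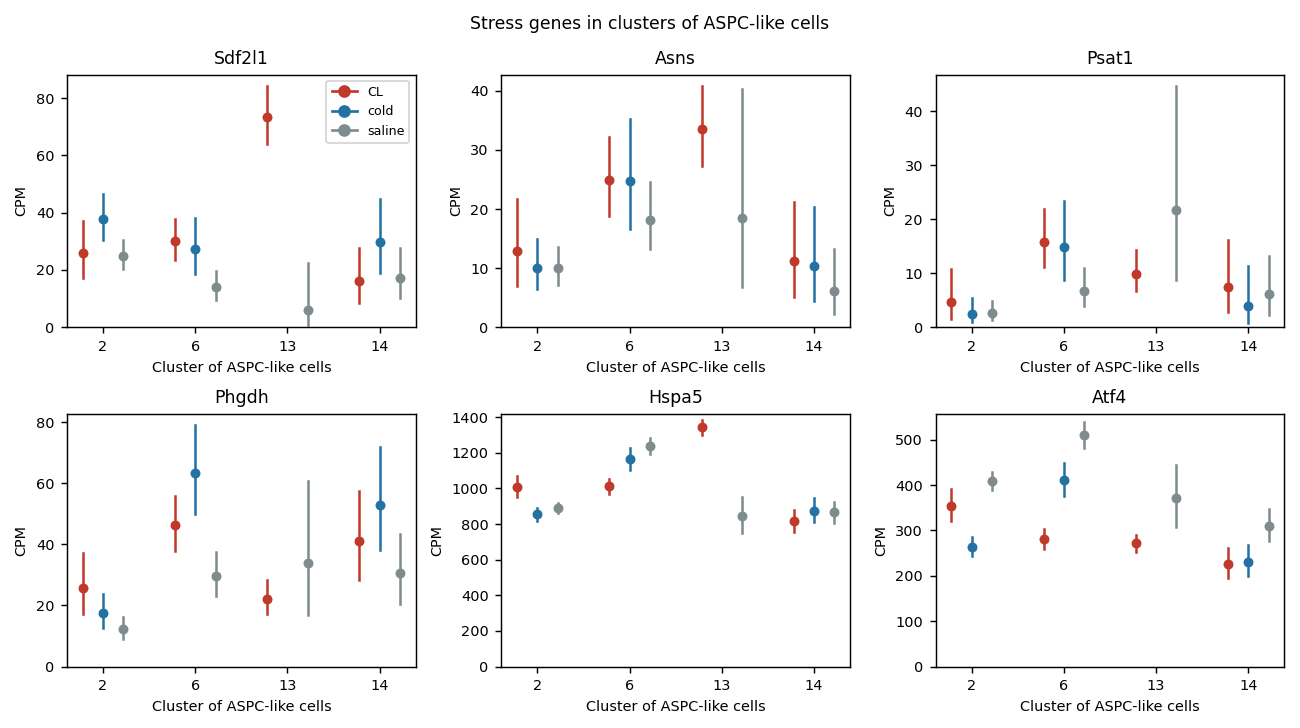
Level in CPM (y axis) of 6 of the genes in the 4 clusters of ASPC-like cells (x axis), with CL, cold and saline from left to right and bars for 95% counting intervals. Cluster 13 had 0 cold cells. Sdf2l1 in cluster 13 stood at 73.5 CPM in the CL library, above its other points, while Phgdh was above saline in both treated libraries in clusters 2, 6 and 14.

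Herpud1 encodes an ER membrane protein that helps to assemble the complex for clearing misfolded proteins. Its highest level was in plasmacytoid dendritic-like cells, at 518 CPM in the CL library, 415 in the cold library and 618 in the saline library, first of all classes in each library. In mature dendritic-like cells it was at 329 CPM (CL), 317 (cold) and 246 (saline), with log2 ratios of 0.42 (95% interval 0.15 to 0.68) for CL and 0.36 (95% interval 0.17 to 0.56) for cold. T cell-like cells had 104 CPM (CL), 106 (cold) and 67.3 (saline), where both treated libraries stood above saline and both passed 1.5-fold, with log2 ratios of 0.63 (95% interval 0.01 to 1.23) for CL and 0.66 (95% interval 0.23 to 1.10) for cold.

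In some classes Herpud1 lay below saline in 1 or both treated libraries. Macrophage-like cells had 81.7 CPM (CL), 128 (cold) and 167 (saline), and the log2 ratio for CL was -1.03 (95% interval -1.25 to -0.81). The median of all genes in that comparison was 0.12, so changes in CL macrophage-like cells are to be read against that shift. The Herpud1 ratio was -0.59 over clusters 9 and 18 alone, and cluster 11, which held most CL macrophage-like cells, had 70.8 CPM (CL) and 56.5 (saline). ASPC-like cells had 85.5 CPM (CL), 108 (cold) and 113 (saline), with a log2 ratio of -0.40 (95% interval -0.56 to -0.25) for CL, and the point value for CL was below saline in all 4 clusters, with intervals below 0 in clusters 2 and 14. In B cell-like cells cold alone was low, at 123 CPM (CL), 67.3 (cold) and 124 (saline), a log2 ratio of -0.89 (95% interval -1.12 to -0.66), and its log2 ratio was -0.98 (95% interval -1.25 to -0.70) in cluster 0 and -0.65 (95% interval -1.08 to -0.21) in cluster 3. With cells of at most 5% mitochondrial UMIs the class ratio for cold was 0.68 instead. Most B cell-like cells lie over that limit, with a median of 8.13% of UMIs in cold cells of cluster 0. Herpud1 overlaps Gm15890 on the opposite strand.

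Counted together against all genes, 1 or 2 members at most passed 1.5-fold over saline in either direction outside the ASPC-like and endothelial-like cells. In ASPC-like cells, 9 of the 10 were measured, and 4 (Asns, Psat1, Phgdh and Sdf2l1) were past 1.5-fold higher and 1 (Atf4) lower in CL over saline, where 14.1% of all 10926 measured genes were higher and 7.61% lower. In cold over saline 2 (Phgdh and Sdf2l1) were higher and 1 (Trib3) lower, against 7.2% and 6.2% of 10549 genes. The median log2 ratio of the members was 0.18 for CL and -0.01 for cold, and that of all genes 0.07 and 0.07. In endothelial-like cells, 0 of 4 measured genes were higher and 3 lower in CL over saline (all genes 9.94% and 16.2%), and 1 of 5 higher and 3 lower in cold over saline (all genes 12.1% and 13.2%). The 3 lower genes were Atf4, Ddit3 and Hspa5 in both, and the higher one in cold was Asns. Members had a median log2 ratio of -0.88 for CL and -0.65 for cold there, and all genes -0.04 and 0.01.

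In B cell-like cells, 2 of 6 measured genes were higher and 0 lower in CL over saline (all genes 9.42% and 17.4%), and 2 of 7 higher and 1 lower in cold over saline (all genes 6.49% and 10.7%). The higher ones were Hspa5 and Sdf2l1 in CL and Psat1 and Sdf2l1 in cold, and the lower one in cold was Herpud1. For T cell-like cells the counts were 2 higher and 0 lower of 6 for CL (all genes 16.1% and 17.0%), and 2 and 0 of 7 for cold (all genes 14.0% and 10.7%). Dendritic-like cells had 1 higher and 0 lower of 7 for CL (all genes 14.2% and 12.3%), and 2 and 0 of 7 for cold (all genes 8.25% and 8.33%). Sdf2l1 was among the higher genes in both comparisons of dendritic-like cells. No member passed in mature dendritic-like cells, with 5 measured in CL (all genes 10.9% higher and 13.4% lower) and 5 in cold (all genes 10.1% and 6.98%). Monocyte-like cells had 1 higher and 0 lower of 7 for CL (all genes 13.1% and 10.8%), and 0 and 1 of 5 for cold (all genes 11% and 20.9%). Those were Asns, on 28 and 2 UMIs, and Ddit3. Macrophage-like cells had 1 higher and 1 lower of 6 for CL (all genes 20% and 14.3%), and 1 and 0 of 5 for cold (all genes 8.58% and 9.96%). Those of CL were Psat1 and Herpud1, and the one of cold was Sdf2l1. With 5 to 7 members measured, 1 gene moves the share by more than most of the background shares.

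The other genes of the pathway were counted from lists chosen with earlier results of these data known. Of 22 further ER chaperones and foldases, 11 of 22 measured were past 1.5-fold higher and 1 lower in ASPC-like cells for CL over saline (all genes 14.1% and 7.61%), with a median log2 ratio of 0.60 against 0.07 for all genes. Pdia6, a disulfide isomerase of the ER, was at 487 CPM in the CL library and 231 in the saline library, a log2 ratio of 1.08. Pdia4, another of its family, was at 116 CPM in the CL library and 55.3 in the saline library, a log2 ratio of 1.06, and calreticulin (Calr) was at 1039.8 CPM in the CL library and 594 in the saline library, a log2 ratio of 0.81. The lower one was Dnajb9, a J-domain protein induced through IRE1 and XBP1, at 80.4 CPM in the CL library and 125 in the saline library, a log2 ratio of -0.64. For cold over saline 0 of 22 measured were past 1.5-fold higher and 0 lower (all genes 7.2% and 6.2%), with a median of 0.29. Without cluster 13, 7 genes were past 1.5-fold higher in CL and 0 lower. The share of all genes over those clusters is not given, so this count cannot be set against it.

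The same list had more higher than lower genes in CL lymphoid cells. In B cell-like cells 11 of 20 measured were past 1.5-fold higher and 0 lower for CL (all genes 9.42% and 17.4%), with a median of 0.63 against -0.05 for all genes, and 5 of 21 measured were past 1.5-fold higher and 0 lower for cold (all genes 6.49% and 10.7%). Manf, a secreted ER stress protein, was at 151 CPM in the CL library and 66.2 in the saline library, a log2 ratio of 1.19, and had a log2 ratio of 0.91 for cold. Markers of antibody-secreting cells moved with these genes: Jchain had a log2 ratio of 1.86 for CL and 1.84 for cold, and Mzb1 0.99 for CL, and their part in the chaperone values was not tested. Of all 5 such markers outside the other lists, 3 were measured for CL and 2 were past 1.5-fold higher. In T cell-like cells 11 of 17 measured were past 1.5-fold higher and 1 lower for CL (all genes 16.1% and 17.0%), with a median of 0.62 against 0.02 for all genes, among them Calr (0.92), Pdia6 (1.02) and Pdia3 (0.80). In cold monocyte-like cells 0 of 19 measured were past 1.5-fold higher and 6 lower (all genes 11% and 20.9%), and those cells came almost all from cluster 5.

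Of 12 further serine, glycine and one-carbon enzymes, 6 of 11 measured were past 1.5-fold higher and 0 lower in ASPC-like cells for CL (all genes 14.1% and 7.61%), with a median of 0.59. Without cluster 13, 4 were higher, again with no share of all genes to set beside them. The 6 higher in the whole class included Shmt2 of the mitochondria, at 17.9 CPM in the CL library and 10.7 in the saline library, a log2 ratio of 0.74. Psph, the last enzyme of serine synthesis, was also among them, at 16.9 CPM in the CL library and 11 in the saline library, a log2 ratio of 0.63. For cold 0 of 10 measured were past 1.5-fold higher and 0 lower (all genes 7.2% and 6.2%), which with so few genes is near the share of all genes. Phgdh itself, which is not in this list, was higher in cold. Of 18 cytosolic aminoacyl-tRNA synthetases, many of which ATF4 raises, 2 of 18 measured were past 1.5-fold higher and 0 lower in CL ASPC-like cells, a share of higher genes below that of all genes. Of 18 genes of the translocon and signal peptidase, 6 of 18 measured were past 1.5-fold higher and 0 lower, among them Sec61b at 485 CPM in the CL library and 261 in the saline library, a log2 ratio of 0.90. Of 18 genes of ER-associated degradation, 0 of 17 measured were past 1.5-fold higher and 0 lower, with a median of 0.34. Of 14 genes of the eIF2 kinases, eIF2B and phosphatase, 2 of 14 measured were past 1.5-fold higher and 0 lower, and of 12 sensors and transducers, 0 of 12 measured were past 1.5-fold higher and 2 lower. These last 2 counts are near or below the share of all genes for higher ones.

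Of 28 further targets of ATF4 and CHOP, 0 of 14 measured were past 1.5-fold higher and 9 lower in endothelial-like cells for CL (all genes 9.94% and 16.2%), with a median of -0.69, and 1 of 14 measured were past 1.5-fold higher and 10 lower for cold (all genes 12.1% and 13.2%), with a median of -0.90, beside the medians of all genes given above. Atf3, also an immediate early gene, was at 88.3 CPM (CL), 92.3 (cold) and 595 (saline). Ppp1r15a, which encodes GADD34, the phosphatase subunit that ends the response, was at 232 CPM (CL), 253 (cold) and 579 (saline). Gdf15, a stress cytokine, was at 20.1 CPM in the CL library and 101 in the saline library, a log2 ratio of -2.33, and had a log2 ratio of -2.01 for cold. In ASPC-like cells the same list gave a median of 0.02 for CL and -0.05 for cold. In cold dendritic-like cells 6 of 19 measured were past 1.5-fold higher and 1 lower (all genes 8.25% and 8.33%), and Slc7a11, the cystine transporter, was at 121 CPM in the cold library and 19.8 in the saline library, a log2 ratio of 2.61. For CL in the same cells its log2 ratio was -0.63, so the treated libraries lay on opposite sides of saline.

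Among the sensors, Xbp1 was at 128 CPM (CL), 136 (cold) and 138 (saline) in ASPC-like cells. Atf6 was at 28.1 CPM (CL), 36.4 (cold) and 46.2 (saline) there, a log2 ratio of -0.72 for CL, while in dendritic-like cells it was at 108 CPM (CL), 81.9 (cold) and 75.3 (saline). Ern1, which encodes IRE1, was at 5.88 CPM (CL), 8.93 (cold) and 9.29 (saline) in ASPC-like cells, from 42, 39 and 72 UMIs. Eif2ak3, which encodes PERK, was at 19.2 CPM (CL), 22.4 (cold) and 21.1 (saline) in the same cells and, of the 8 main classes, was highest in B cell-like cells, at 114 CPM (CL), 103 (cold) and 102 (saline). Eif2ak4, which encodes GCN2, had at most 60 UMIs in any main class of any 1 library. Eif2ak2, which encodes the kinase PKR for double-stranded RNA and is induced by interferon, stood above saline in CL ASPC-like cells, at 102 CPM in the CL library and 35.2 in the saline library, a log2 ratio of 1.54, and in CL dendritic-like cells (log2 ratio 2.11). Ddit4, an ATF4 target that restrains mTORC1, was at 116 CPM (CL), 74.5 (cold) and 133 (saline) in endothelial-like cells.

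**Figure D5:**
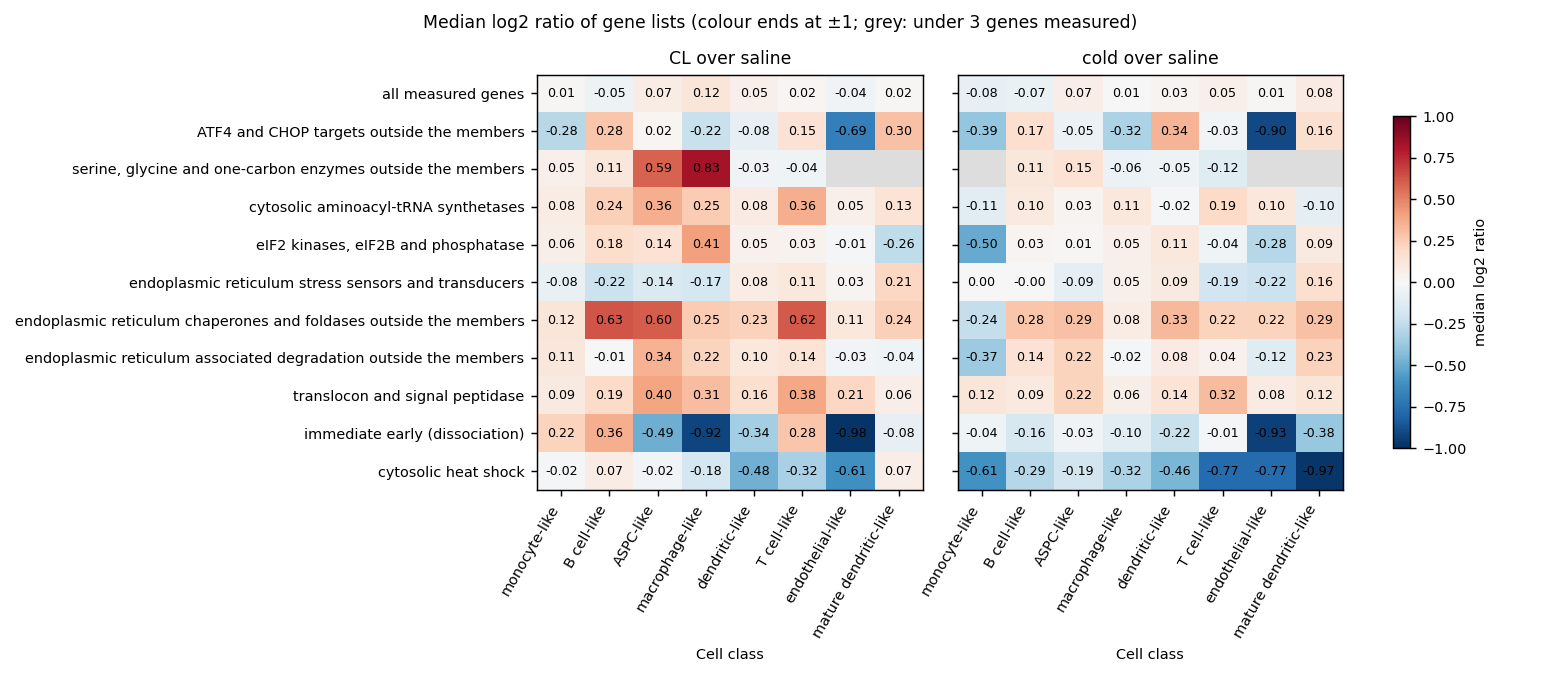
Median log2 ratio over saline of each pathway list (rows, with all measured genes on top) in the 8 main cell classes (columns), for CL on the left and cold on the right. ER chaperones reach 0.60 in ASPC-like and 0.63 in B cell-like cells in the CL library, and ATF4 and CHOP targets and immediate early genes are lowest in endothelial-like cells in both.

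Across the 37 pairs of class and library with enough cells, the genes most alike to Hspa5 in level, on a log2 scale with 20 CPM added, were Hsp90b1 (Pearson r of 0.81), P4hb (0.80), Rrbp1 (0.80), Lamtor4 (0.78) and Rpn2 (0.77) of 11265 compared. For Atf4 they were Ccnl1 (0.74), Mafk (0.73), Hspa5 (0.72), Eif1a (0.71) and Brd2 (0.70). For Asns they were Fhl1 (0.92), Ly6c1 (0.91), Airn (0.91), Tshz2 (0.90) and Msx1 (0.90). Among the members the r of Atf4 was 0.31 with Ddit3, 0.14 with Asns and 0.02 with Phgdh, that of Asns was 0.61 with Trib3, and that of Hspa5 was 0.36 with Sdf2l1 and 0.04 with Herpud1. The pairs share libraries and depth, so these values are a description.

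Within ASPC-like cells thinned to 2000 UMIs, Asns was set beside Ddit3 in single cells, a pair chosen after its values were seen. In the CL library the levels were 53.9 CPM of Asns in cells with a Ddit3 UMI and 23.2 in cells without, a log2 ratio of 1.22 (95% interval -0.18 to 2.38). In the cold library they were 57.1 and 13.7, a log2 ratio of 2.06 (95% interval 0.01 to 3.71), and in the saline library 32.9 and 8.11, a log2 ratio of 2.02 (95% interval 0.24 to 3.5). The Asns counts in Ddit3-positive cells were 7, 4 and 5 UMIs, in 65, 35 and 76 cells. The point value was higher in cells with Ddit3 in each library, on few counts, and the CL interval held 0. Cells of 1 library are not replicates. For Atf4, set beside Ddit3 in the same way, the intervals held 0 in the 3 libraries. Set beside Asns, Atf4 in saline cells was at 804 CPM in the 23 cells with an Asns UMI and 453 in cells without. That was a log2 ratio of 0.83 (95% interval 0.31 to 1.3). In CL cells the log2 ratio was 0.03, with an interval that held 0. The cold library, with 19 such cells, was under the minimum of 20 and gave no value.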

How the data were processed

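Whole-number counts of unique molecules (UMIs) per gene and barcode were deposited as 1 matrix per library, made with Cell Ranger 3.0.2, per the file headers, on genome build mm10, per the submitters' processing notes, from 10x 3' v3 libraries, per the labels' protocols. Neither the gene annotation nor the rule for calling cells is named in the labels or headers. In the matrices were 7943 CL, 5050 cold and 7674 saline barcodes with 29323106, 19899223 and 25875379 UMIs.

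Barcodes with at least 500 genes and at most 15% mitochondrial UMIs were kept (6705 CL, 3862 cold and 6271 saline), and doublets called by Scrublet in scanpy 1.11.5 were removed (55, 4 and 87). In the cold library that is so few that the caller may not have worked there. Cells were clustered by Leiden at a resolution of 1, on 30 components of 2000 genes, and clusters were named from marker lists, with at least 3 markers detected. Names may differ from those of the study.

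UMIs were summed per class and library. CPM has exact Poisson intervals, log2 ratios have exact conditional binomial intervals, and shares have exact Clopper-Pearson intervals, all at 95% and for counting error only. A library with 0 UMIs took a floor of 3. With 1 library per group no test was possible and no p-value was computed. The intervals were checked on simulated counts. Ratios past 1.5-fold were counted with numpy 2.4.6, scipy 1.17.1 and pandas 2.3.3.

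The 10 genes, the pathway lists and the markers were chosen with earlier results of these data known. Named beside the 10 were, from each list, up to 3 genes higher and 3 lower per class and comparison, of those that reached 50 UMIs in either library, by the interval bound nearer to 0, then 8 regulators and the 5 genes most alike to Hspa5, Atf4 and Asns (those for Ddit3 are not reported here). Other genes are named as markers or leading genes of clusters, or to set a treatment beside another. Promoter sequences are RefSeq's. Gene overlaps are from the GENCODE mouse annotation, in which 28339 of the 28692 gene identifiers in the count tables were found.

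Alternatives changed the scaling, the weight of cells, the cell filters, the doublet rule, the clusters used, the fold, the UMI minimum and the cells with most UMIs of a gene. The one over clusters with at least 20 cells in every library was chosen after seeing the data.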

Additional observations from a re-analysis of the deposited data

How the results depend on the processing

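Of 1264 log2 ratios recomputed for the members under an alternative, 1181 kept their direction and moved by less than their interval, 75 moved further and 8 changed sign. Without the 3 cells with most UMIs of the gene, Asns in monocyte-like cells went to -0.11 for CL over saline (0.77 with all cells), and Sdf2l1 in B cell-like cells to -0.10 for CL over saline (1.5) and -0.55 for CL over cold (0.81). With cells weighted equally the last pair were -0.63 and -0.65. At 5% mitochondrial UMIs or less, Herpud1 in cold B cell-like cells was 0.68 (-0.89). Sdf2l1 in monocyte-like cells for CL over cold was -0.020 over the clusters present in every library (0.73), and Herpud1 in macrophage-like cells for CL over cold was 0.10 in the largest cluster (-0.65). The causes were not tested. Of 174 counts of members past the fold over saline, higher and lower together, 50 moved by over 1.5 times, and each is given with the value from the report in brackets, by class (-like). With at least 1000 genes per cell it was 1 (3) in cold B cell and 0 (2) in CL T cell. With a minimum of 50 UMIs it was 0 (1) in CL monocyte, 1 (2) in CL B cell, 1 (2) in CL macrophage, 1 (2) in cold dendritic, 1 (2) in cold T cell and 2 (4) in cold endothelial. At 5% mitochondrial UMIs or less it was 0 (1) in CL monocyte, 0 (2) in CL macrophage, 0 (1) in cold macrophage, 0 (2) in cold dendritic, 1 (2) in cold T cell, 2 (4) in cold endothelial and 1 (0) in CL mature dendritic. With cells weighted equally it was 1 (2) in CL B cell, 1 (3) in cold B cell, 1 (2) in cold T cell and 2 (0) in CL mature dendritic. Over clusters present in every library it was 2 (1) in cold monocyte and 1 (2) in CL macrophage. With doublets kept it was 1 (0) in CL mature dendritic. At a fold of 2 it was 0 (1) in CL monocyte, 1 (2) in CL B cell, 0 (3) in cold B cell, 3 (5) in CL ASPC, 0 (3) in cold ASPC, 1 (2) in CL macrophage, 0 (1) in cold macrophage, 0 (1) in CL dendritic, 0 (2) in cold dendritic, 0 (2) in CL T cell, 1 (2) in cold T cell, 1 (3) in CL endothelial and 1 (4) in cold endothelial. In the largest cluster of a class it was 0 (1) in CL monocyte, 1 (3) in cold B cell, 2 (5) in CL ASPC, 1 (2) in CL macrophage, 2 (1) in CL dendritic, 0 (2) in cold dendritic and 2 (4) in cold endothelial. With a doublet score limit of 0.2 it was 1 (0) in CL mature dendritic. Without the 3 top cells per gene and library it was 2 (1) in CL monocyte, 2 (1) in cold monocyte, 0 (2) in CL B cell, 1 (2) in cold dendritic, 1 (2) in CL T cell, 1 (2) in cold T cell and 1 (0) in CL mature dendritic. Centring on the median gene moved none of the 16 counts. The largest cluster of cold monocyte-like cells held under 20 cells and gave no value, and nor did CL B cell-like cells at 5% mitochondrial UMIs or less. No paired analysis was possible because each group is 1 library. Depth limits Chac1, Trib3, Psat1 and Asns most, since few of their UMIs fall in any class, and a difference between libraries cannot be told from a difference between animals.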

Other observations

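The unnamed cluster led by Top2a, Mki67 and Stmn1, with 52 CL, 30 cold and 49 saline cells, stood first or second of all classes for Sdf2l1, at 118 CPM (CL), 163 (cold) and 114 (saline). Hspa5 was at 692 CPM (CL), 686 (cold) and 792 (saline) there, and Atf4 at 323 CPM (CL), 277 (cold) and 285 (saline), in the middle of the classes. In Schwann-like cells, the glia of peripheral nerve, Atf4 was at 182 CPM (CL), 246 (cold) and 469 (saline), from 32 CL, 65 cold and 60 saline cells, and Hspa5 was at 365 CPM (CL), 366 (cold) and 682 (saline).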
